A study of Mus musculus with 2 samples.

Results

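The 10 genes described here build or control skeletal and heart muscle, and their DNA methylation was measured in the mouse epiblast, well before any muscle forms. They were chosen by name, as 3 regulators (Myod1, Myf5 and Myog) and 7 contractile and effector genes (Acta1, Actc1, Ckm, Mb, Tnnt2, Des and Myl2), out of 21900 protein-coding genes in the annotation. DNA was sequenced after bisulfite conversion, across the whole genome, from the epiblast, the embryonic layer that forms the fetus, dissected from wild-type female (XX) C57Bl6/J embryos at embryonic day 6.5 after natural mating, without culture and after sexing by PCR. No treatment or mutant allele was part of the design. The labels list 2 samples in this single group, but the counts came as 1 table without a column per sample. No value below therefore has a replicate error, and no test between groups was possible. A level is the share of reads over the CpGs of a region that were methylated, and it pools both alleles and all cells of the tissue.

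In muscle formation, the basic helix-loop-helix factors Myf5 and Myod1 commit cells to the skeletal muscle fate, and myogenin, encoded by Myog, drives their differentiation. These factors bind E-boxes in the promoters of genes for the contractile apparatus. Methylation of cytosine in CpGs is usually low where CpGs are dense, as in CpG islands at gene starts, and high elsewhere. Many tissue-specific effector genes have starts with few CpGs, whereas starts of developmental regulators often lie in CpG islands.

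The sequences at 5 starts are shown because they run from the least (Des) to the most methylated (Ckm) of the stretches at the outermost starts. Each runs from 250 bases before to 50 bases after a start annotated by RefSeq (GRCm38.p6), 5′ to 3′ on the strand of the gene, with CpGs in capitals. The desmin start is on the plus strand (chr1:75360042-75360341), that of Acta1 on the minus strand (chr8:123894726-123895025), that of Actc1 on the minus strand (chr2:114052826-114053125), that of Myog on the plus strand (chr1:134289754-134290053) and that of Ckm on the plus strand (chr7:19410844-19411143).
Des: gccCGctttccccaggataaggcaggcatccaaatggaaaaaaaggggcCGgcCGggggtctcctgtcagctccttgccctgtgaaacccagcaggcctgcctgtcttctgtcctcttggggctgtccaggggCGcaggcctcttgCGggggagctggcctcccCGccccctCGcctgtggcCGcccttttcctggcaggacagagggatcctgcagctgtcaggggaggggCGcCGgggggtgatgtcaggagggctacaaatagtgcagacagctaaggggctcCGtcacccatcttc
Acta1: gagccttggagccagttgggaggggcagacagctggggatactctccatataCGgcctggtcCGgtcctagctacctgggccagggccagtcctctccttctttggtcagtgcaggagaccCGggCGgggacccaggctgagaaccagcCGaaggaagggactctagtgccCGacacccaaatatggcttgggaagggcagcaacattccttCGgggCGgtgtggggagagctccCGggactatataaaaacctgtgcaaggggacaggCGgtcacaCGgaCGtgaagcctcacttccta
Actc1: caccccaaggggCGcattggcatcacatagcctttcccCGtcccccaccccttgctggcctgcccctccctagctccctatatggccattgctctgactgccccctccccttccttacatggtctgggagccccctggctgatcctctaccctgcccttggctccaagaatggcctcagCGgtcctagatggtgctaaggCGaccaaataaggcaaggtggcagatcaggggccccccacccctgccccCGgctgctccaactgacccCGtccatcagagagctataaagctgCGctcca
Myog: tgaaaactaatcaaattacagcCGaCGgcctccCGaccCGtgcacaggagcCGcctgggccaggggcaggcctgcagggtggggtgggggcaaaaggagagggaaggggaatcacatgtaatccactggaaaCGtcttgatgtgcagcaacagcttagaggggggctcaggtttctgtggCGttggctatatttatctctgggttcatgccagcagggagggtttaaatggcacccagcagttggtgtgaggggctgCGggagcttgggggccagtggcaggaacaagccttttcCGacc
Ckm: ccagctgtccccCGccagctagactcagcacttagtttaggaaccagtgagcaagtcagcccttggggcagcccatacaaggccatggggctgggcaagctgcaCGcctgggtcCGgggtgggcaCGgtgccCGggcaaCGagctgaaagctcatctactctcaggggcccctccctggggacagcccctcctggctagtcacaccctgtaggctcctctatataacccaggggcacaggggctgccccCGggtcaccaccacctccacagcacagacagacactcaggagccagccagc

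These 5 stretches hold 11 CpGs at Des, 12 at Acta1, 9 at Myog and 7 each at Actc1 and Ckm. Over those CpGs the level was 23.6% at Des (25 of 106 reads, 95% interval 15.9% to 32.8%). It was 44.0% at Acta1 (55 of 125 reads, 35.1% to 53.2%). At Actc1 it was 63.3% (31 of 49 reads, 48.3% to 76.6%), at Myog 72.5% (37 of 51 reads, 58.3% to 84.1%) and at Ckm 81.8% (45 of 55 reads, 69.1% to 90.9%). Des and Acta1 thus have nearly the same number of CpGs here but intervals that do not overlap. All intervals are exact Clopper-Pearson intervals, reflect only counting error. They treat reads as independent, although no molecular identifiers were used in the counts and 1 read can span several CpGs.

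At Des the 3 CpGs upstream of base -150 were methylated in 11 of 18 reads, and the 8 CpGs from there to the end in 14 of 88 reads (15.9%, 8.98% to 25.2%). The CpG 68 bases before the start had 0 methylated of 11 reads, and those 86 and 78 bases before it had 1 of 13 and 2 of 12. At Acta1 the 2 upstream CpGs had 11 of 16 methylated reads and the other 10 had 44 of 109 (40.4%, 31.1% to 50.2%), with intervals that overlapped. At Ckm the upstream CpG had 5 of 6 methylated reads and the other 6 CpGs had 40 of 49. The division at base -150 was chosen after the values at Des were seen. Few reads per CpG limit what single CpGs can show.

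Over a wider region, 2 of the 10 genes had a low start and 7 a high one. The start window reached 1 kb to either side of the outermost annotated 5′ end, and for Myod1 it was centred on the gene end with more CpGs. A window was called low when its interval lay under 20%, high when it lay above 60% and intermediate when it lay between them. A window whose interval reached across a limit was unresolved. Low were Myod1 and Des, intermediate was Acta1, and high were the other 7. Of 19532 autosomal protein-coding genes with a measured start window, 54% were low and 19.7% high. A further 3579 of them were unresolved. The low calls depended on the window, the strand and the CpGs counted. Myod1 was no longer called low with minus strand reads alone (18.3%) or with 500 bp to either side (18.9%), and Des with CpGs of more than 26 reads left out (22.03%). Neither was called low with 2000 bp to either side (18.4% and 20.5%) or with 1 CpG per 100 bp (27.6% and 25.9%).

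Among the regulators, Myod1, which encodes the factor that can turn fibroblasts into muscle cells, was methylated in 16.7% of 1188 reads (14.6% to 18.9%; chromosome 7, 46375474 to 46377474). Its window held 91 CpGs. Myf5, the first of these factors to be switched on in the somites, was at 67.1% of 289 reads (61.4% to 72.5%; chromosome 10, 107485927 to 107487927) in a window of 36 CpGs. Myog, required for muscle fibre formation, was at 75.8% of 380 reads (71.2% to 80.01%; chromosome 1, 134289004 to 134291004) with 44 CpGs. The interval of Myod1 did not overlap that of either other regulator, and those of Myf5 and Myog overlapped slightly.

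Among the contractile and effector genes, Des, which encodes the intermediate filament desmin, was the one low gene, at 15.1% of 1845 reads (13.5% to 16.8%; chromosome 1, 75359292 to 75361292) over 109 CpGs. The skeletal actin gene Acta1 was at 51.1% of 307 reads (45.4% to 56.9%; chromosome 8, 123893775 to 123895775) over 30 CpGs. The cardiac actin gene Actc1 was at 71.8% of 245 reads (65.8% to 77.4%; chromosome 2, 114051875 to 114053875) over 35 CpGs. The intervals of the 2 actin genes did not overlap, and Acta1 was the lower.

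The muscle creatine kinase gene Ckm, which buffers ATP, was at 69.7% of 261 reads (63.8% to 75.2%; chromosome 7, 19410094 to 19412094). Tnnt2, the cardiac troponin T gene, was at 70.8% of 195 reads (63.8% to 77.0%; chromosome 1, 135835315 to 135837315). Myl2, which encodes the regulatory light chain of ventricular myosin, was at 82.9% of 356 reads (78.5% to 86.6%; chromosome 5, 122091724 to 122093724). The myoglobin gene Mb, for oxygen storage, was highest at 85.1% of 363 reads (81.0% to 88.6%; chromosome 15, 77049668 to 77051668). The windows of these 4 genes held between 22 and 33 CpGs. The intervals of Mb and Myl2 overlapped each other, as did those of Ckm, Tnnt2 and Actc1, and neither of the first pair overlapped any of these 3.

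Regulators and contractile genes were not separated by their start levels. The median was 67.1% for the 3 regulators and 70.8% for the 7 others, and each group had 1 low gene. The direction of that small difference turned when windows reached only 500 bp to either side, where contractile genes minus regulators gave -4.11 points.

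The 2 low genes had the most CpGs. Myod1 and Des were the only members with a CpG-rich window, meaning at least 80 CpGs within 1 kb of the start. Of 7625 autosomal genes with such a window 97.7% were low, and of 6862 with a CpG-poor one (under 40 CpGs) 1.52% were. High windows made up 0.0262% of the CpG-rich and 51.7% of the CpG-poor ones, and 6 of the 7 CpG-poor members were high. Of the 6862 CpG-poor genes 2499 were unresolved, whereas 0 members were, so these shares are not fully alike. These 7 lay between 51.1% and 85.1%, with a median of 70.8%, next to 71.0% for all CpG-poor autosomal genes. Counting both ends of all 10 genes, the 5 windows with at least 50 CpGs lay between 14.1% and 29.5%, and the 15 with fewer lay between 51.1% and 85.1%. The number 50 was chosen after the values were seen. Across the 10 starts, Spearman's rho between CpG number and level was -0.36, which describes genes of 1 table that share its depth and base composition.

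Compared with genes of the same CpG class, several members stood high. Myod1 and Des had higher levels than 97.2% and 96.0% of CpG-rich autosomal genes, whose median was 6.78%. Myog, the one member of the intermediate class (40 to 79 CpGs), was above 96.8% of that class. The class had a median of 14.4%, and 59.4% of it were low and 6.01% high. With 44 CpGs, however, Myog lay near the lower limit of the class, whose median was 62 CpGs. Below that limit, CpG-poor genes had a median level of 71.0%, so this rank depends on where the class was cut. Mb and Myl2 were above 94.1% and 89.6% of CpG-poor genes, whereas Acta1 was above only 15.5% of them. Myf5 (38.4%), Ckm (45.6%), Tnnt2 (49.0%) and Actc1 (52.5%) lay in the middle of that class. These classes hold for the outermost gene ends. At its annotated start, 793 bp inside, Myf5 had 49 CpGs at 69.5%, and the second start of Myl2 had 40 CpGs at 82.4%. Both of those windows fall in the intermediate class.

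**Figure D1:**
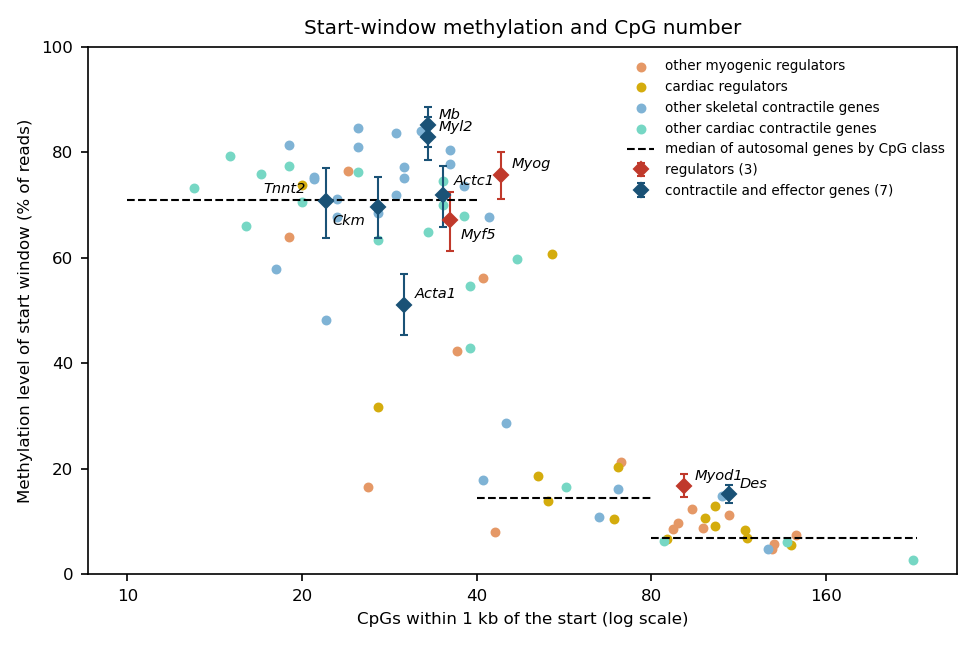
Level of the start window in percent of reads (vertical) by number of CpGs within 1 kb of the start (horizontal, log scale) for the 10 genes (diamonds with 95% intervals) and 4 lists of other muscle genes (dots), with the median of autosomal genes in each CpG class (dashed). Myod1 and Des lie at the right with 91 and 109 CpGs at 16.7% and 15.1%. Myog, with 44 CpGs near the lower limit of its class, lies far above the dashed line of that class.

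At the other gene end, Acta1 and Ckm were far lower than at their starts. Acta1 was at 14.1% of 1084 reads there (12.1% to 16.3%; chromosome 8, 123890758 to 123892758) over 77 CpGs. Ckm was at 21.7% of 788 reads (18.9% to 24.7%; chromosome 7, 19420583 to 19422583) over 63 CpGs, an interval that reached across 20%. With 500 bp to either side this end of Ckm was at 8.19%, and with 1 CpG per 100 bp at 31.9%. The end of Acta1 was at 24.6% with 2000 bp to either side. In Des the order was the opposite, with 71.9% (66.4% to 76.9%) at the other end. Myod1 was at 29.5% (25.6% to 33.6%), above its start, and was called intermediate, with 45.0% when 1 CpG per 100 bp was counted.

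The remaining other ends were all methylated. They were Mb at 84.5%, Tnnt2 at 78.1%, Actc1 at 74.6%, Myf5 at 73.1% on 26 reads only, Myog at 66.7% and Myl2 at 63.5%. In Myl2 the other end was below the start with intervals that did not overlap (56.1% to 70.5% and 78.5% to 86.6%).

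Gene bodies, without 1 kb at each end, were measured in 9 of the 10 genes. All autosomal genes had a median of 75.9% (quartiles 67.4% and 82.3%). Within these quartiles lay Mb at 78.2%, Myf5 at 75.1%, Tnnt2 at 73.3%, Actc1 at 72.4% and Myl2 at 69.0%. Des at 64.1% (61.1% to 67.0%), Ckm at 54.3% (51.9% to 56.6%), Acta1 at 41.0% (36.6% to 45.5%) and Myod1 at 21.2% (15.3% to 28.1%) were below the lower quartile. The Myod1 body comprised 22 CpGs, and that of Myog, with 4, had too few to be counted as measured. The median body level was 69.0% over the 7 contractile genes and 48.1% over the regulators. The regulator value rests on 2 genes that lay far apart, Myod1 and Myf5.

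**Figure D2:**
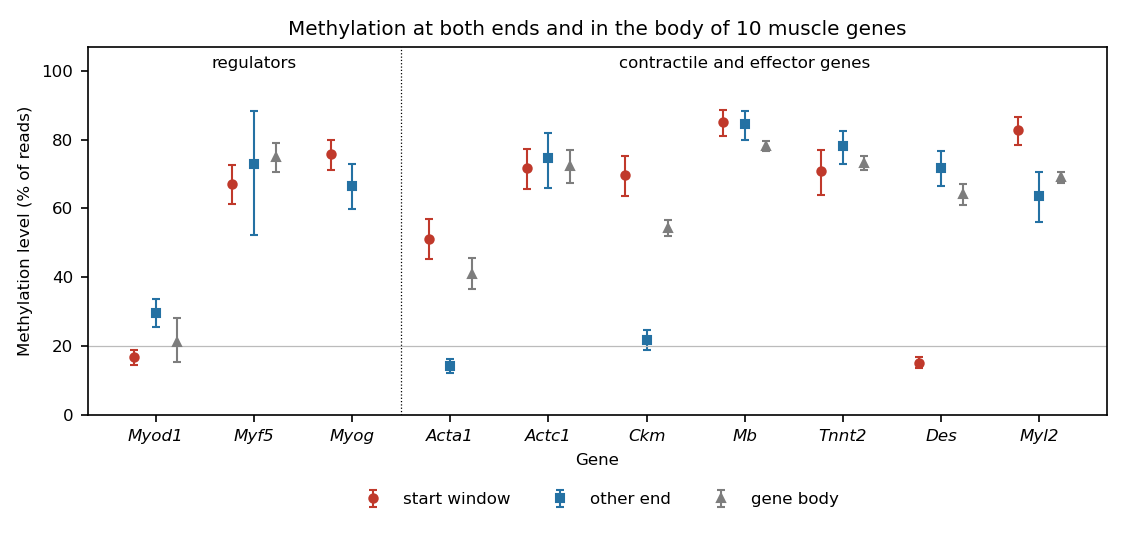
Methylation level in percent of reads (vertical) of the start window (red circles), the window at the other end (blue squares) and the gene body (grey triangles) of each gene, with exact 95% intervals and a line at 20%. Only Myod1 and Des have a start below the line, while at the other end Acta1 (14.1%) lies below it and Ckm (21.7%, 18.9% to 24.7%) across it; the body of Myog was not measured.

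Finer bins of 250 bp located the low stretches. In Des 3 adjacent bins from the start to 750 bp inside the gene were at 7.48% of 1537 reads (6.22% to 8.91%; chromosome 1, 75360292 to 75361041) with 73 CpGs, and the bin just before the start was at 23.8%. In Myod1 the longest run of bins under 20% lay 250 to 1000 bp inside the gene, at 10.8% of 832 reads (8.79% to 13.1%; chromosome 7, 46376724 to 46377473) with 58 CpGs. A bin just before the Myod1 start was at 16.9% of 142 reads, and the first bin inside at 23.6%. In both genes the lowest bin was inside the gene.

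In Acta1 the run lay 2000 to 2750 bp from the start of a gene of 3018 bp, at 13.4% of 629 reads (10.8% to 16.3%; chromosome 8, 123892026 to 123892775). Bins from 3000 to 3500 bp, just past the gene, were at 4.65% of 43 reads and 6.08% of 148 reads. In Ckm the run covered 1000 bp across the end of the gene, from 9750 to 10750 bp, at 5.29% of 548 reads (3.57% to 7.51%; chromosome 7, 19420844 to 19421843). A further 2 low bins lay between 9000 and 9500 bp, at 7.17% and 7.89%. The start of the noncoding gene A930016O22Rik, which lies antisense to Ckm, falls in the longer run. The window around that start was at 16.8% (14.2% to 19.6%). No low bin was found in Myf5, Myog, Actc1, Mb or Tnnt2, and in Myl2 a single bin of 2 CpGs and 17 reads beyond its end was low.

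**Figure D3:**
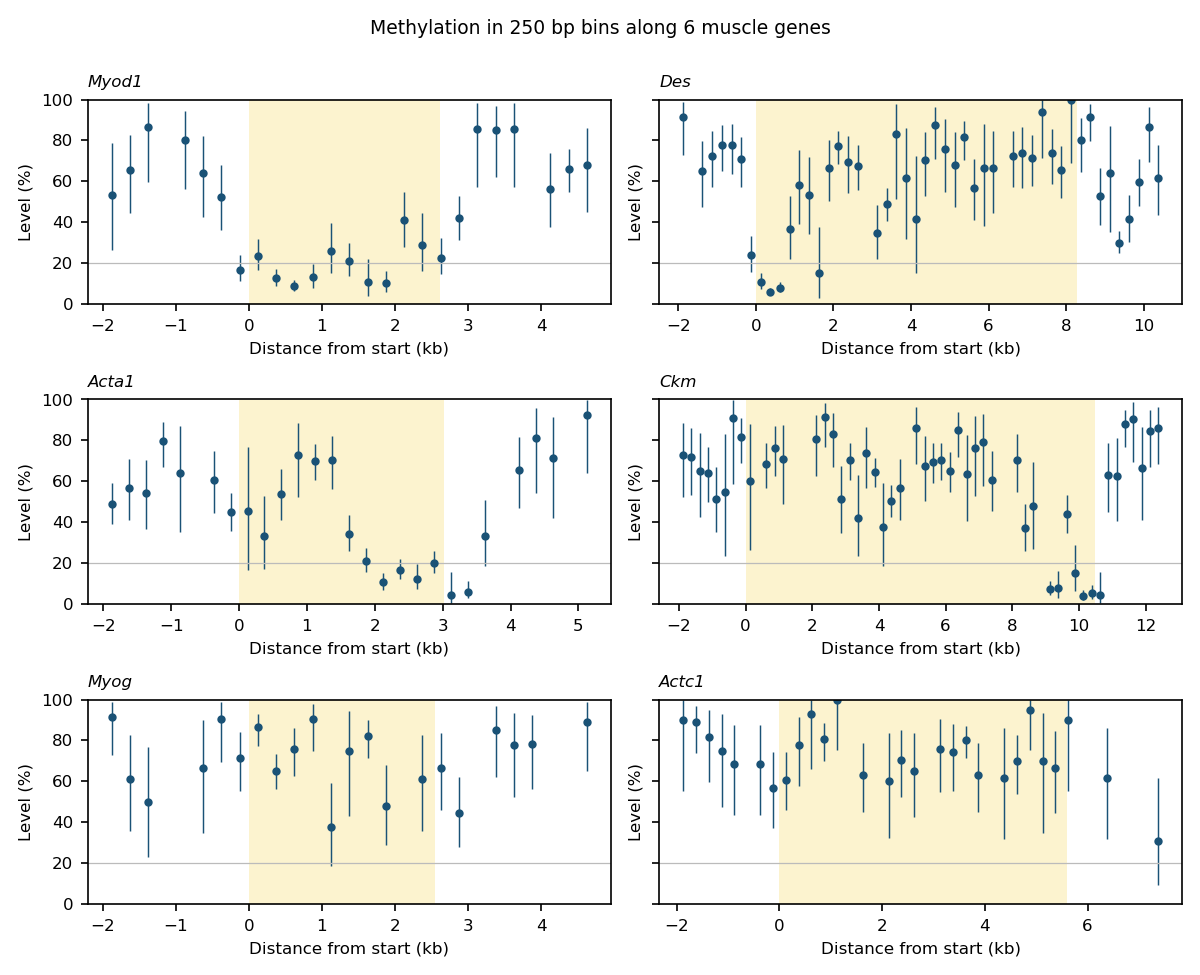
Methylation level (vertical, percent of reads) in 250 bp bins by distance from the start (horizontal, kb) in 6 of the genes, with exact 95% intervals, the gene shaded and a line at 20%; bins with under 10 reads are left out. Low bins sit at the start of Des, across Myod1, and at the far end of Acta1 and Ckm, and none occur in Myog or Actc1.

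The surroundings were mostly methylated. Of 200 windows of 1 kb within 10 kb of either gene end, 173 had enough reads, and their median was 72.1%. Above 60% were 132 of them and under 30% were 12. The unmeasured windows lay mainly around Myf5 and Actc1, with 9 measured of 20 in each. The median over windows of each gene ran from 51.6% at Myf5 to 75.9% at Myog. Regulators had a median of 75.6% over genes and contractile genes 71.1%, and with plus strand reads alone these values were 68.8% and 73.1%, which turned the order.

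Most of the 12 windows under 30% overlapped other genes. Upstream of Ckm, a window at 6.99% held the start of Klc3, a kinesin light chain gene, and one at 5.19% its first part. The start window of Klc3 itself was at 5.96% (4.48% to 7.74%). Another window, next to the one at 6.99%, was at 18.5% and held an end of the noncoding gene Gm38954. Downstream of Ckm, a window over the kinase gene Mark4 was at 23.3%. Downstream of Des, a window at 29.1% held the start and one at 25.6% the next part of Speg, a striated muscle kinase gene, whose start window was at 29.7% (26.7% to 33.0%). Downstream of Myog, a window of 67 CpGs at 20.04% (16.7% to 23.7%) overlapped Ppfia4 and the start of the noncoding gene Gm32267.

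Upstream of Myf5, the regulator gene Myf6 lies in the same 10 kb. A window overlapping Myf6 was at 27.4% (20.3% to 35.4%) and its neighbour at 41.0%, and the end of Myf6 with more CpGs was at 42.3% (35.5% to 49.2%). This was below Myf5 itself, with no overlap of intervals. Another window 2 to 3 kb before Myf5 was at 21.4% but rested on 28 reads (8.30% to 41.0%). The noncoding gene Myoparr, which starts 243 bp from the start of Myog on the other strand, was at 74.7%, in a window largely shared with Myog. Next to Acta1 the low stretch went on for 1 window past the gene end, at 10.1% of 227 reads (6.53% to 14.8%), with no annotated gene in it. Other protein-coding neighbours that reach into these 10 kb had their own start windows at 6.07% (Mark4), 6.12% (Nup133, next to Acta1), 8.72% (Ppfia4) and 9.36% (Lad1, next to Tnnt2), while Apol6 by Mb was at 76.2% and Ccdc63 by Myl2 at 80.6%. For Mark4, Apol6 and Ccdc63 the start was taken as the end with more CpGs.

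**Figure D4:**
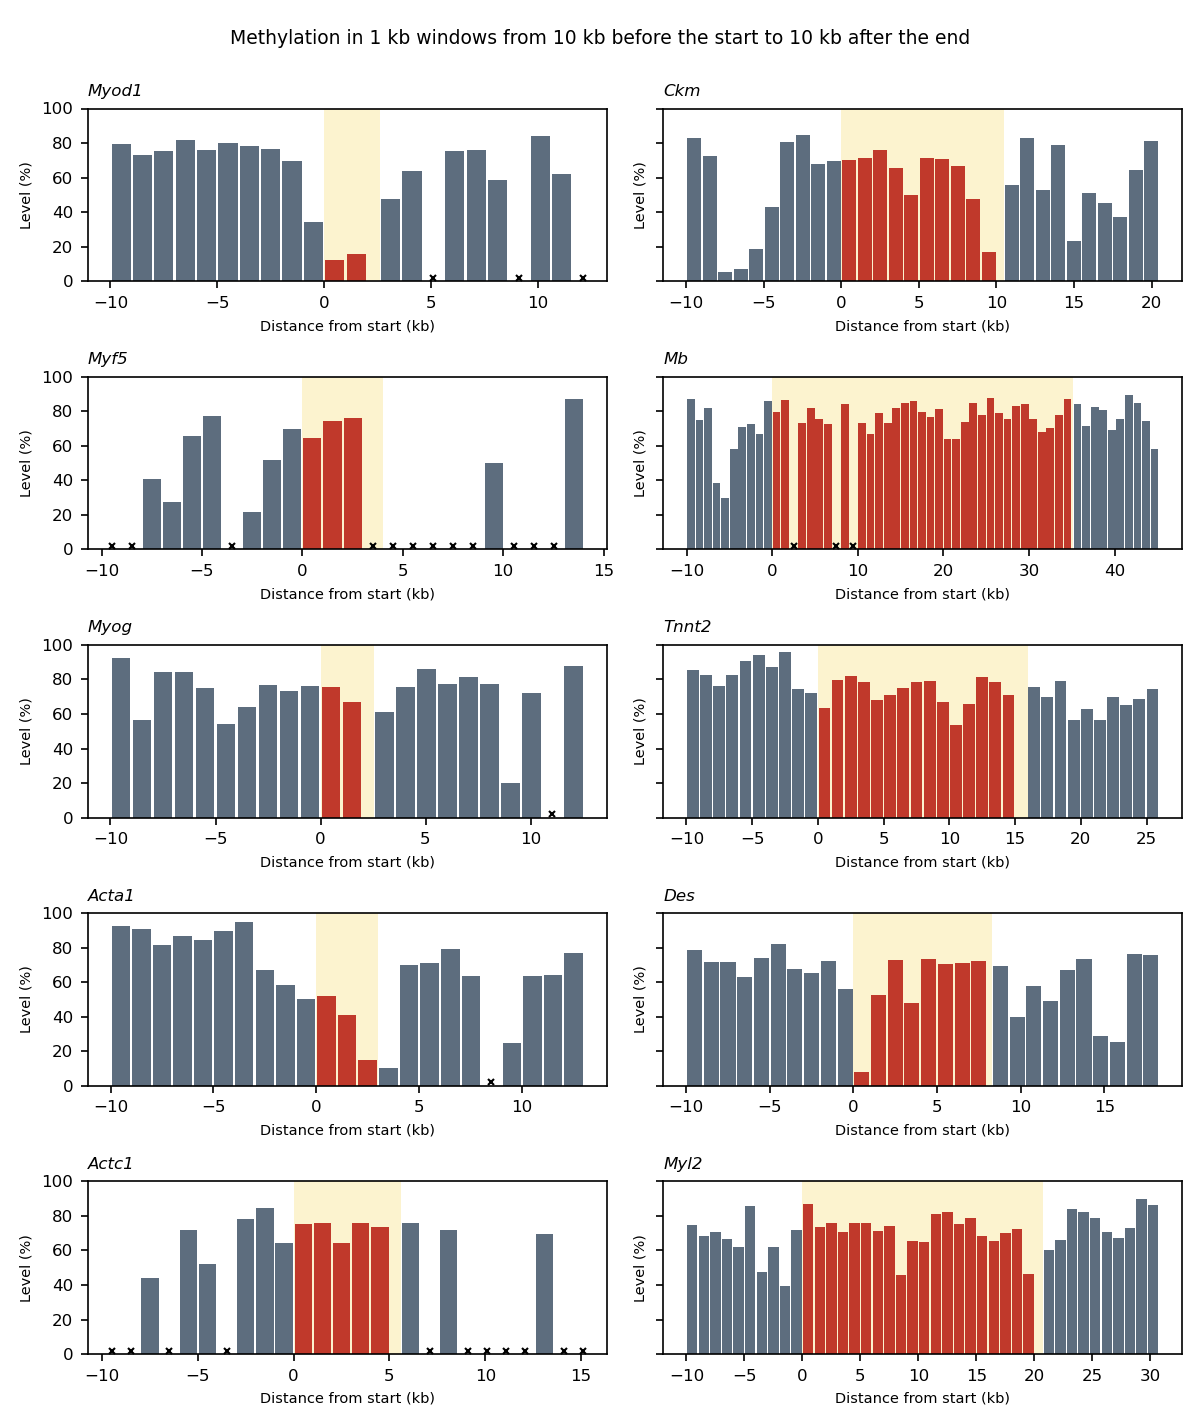
Methylation level (vertical, percent) in 1 kb windows by distance from the start (horizontal, kb) for each of the 10 genes, with windows inside the gene in red on a shaded ground and those outside in grey; crosses mark windows with under 5 covered CpGs or 20 reads, and the last incomplete kilobase of each gene is left out. Windows under 20% are few and lie in Myod1, at the start of Des, around the end of Acta1 and at the end of Ckm. Others lie upstream of Ckm (5.19%, 6.99% and 18.5%). The measured windows of Tnnt2 lie between 53.7% and 96.0%.

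The low domains were short. Counting outward from the start in 1 kb windows under 20%, Myod1 had 2 windows and Des 1, all inside the gene, and the other 8 members had 0. Before Myod1 the first kilobase was at 34.1%, and the 9 windows beyond it lay between 69.4% and 81.7%.

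Some genes have further annotated starts. Mb has 2 inner ones about 28 kb from its outermost start (27881 and 27941 bp), and the windows around them were at 79.9% and 80.7%, close to the 85.1% at the outermost. The second start of Tnnt2 was at 65.3% (55.2% to 74.5%) and that of Myl2 at 82.4%. The annotated start of Myf5 lies 793 bp inside the outermost gene end and was at 69.5%. At none of these was a member low.

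The motifs searched in the 300 bases at the outermost start of 9 members, on both strands, were the E-box CANNTG, its form CAGCTG (a subset of the E-boxes), the TATA box TATAAA, the CArG box of serum response factor and the MEF2 site. An E-box was present in 8 of 9, compared with 72.3% of 32851 RefSeq promoters of the same length. CAGCTG was present in 5 of 9 (Acta1, Ckm, Tnnt2, Des and Myl2), compared with 16.3%. A CArG box was found in the actin genes Acta1 and Actc1, compared with 1.63% of promoters, and TATAAA in Myf5, Acta1 and Actc1, compared with 13.6%. The MEF2 site was written YTAWWWWTAR, with Y for C or T, W for A or T and R for A or G. An exact match was found in 0 of 9 and in 3.19% of all promoters. The Myog stretch holds ctatatttat, which departs from this pattern only at its last base. A match is a string of letters and does not show that a factor binds. Low Des and high Ckm both hold CAGCTG.

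Strands were compared because a CpG is the same on both. Among the start windows, Ckm had the widest gap, with 64.5% (56.0% to 72.4%) on the plus and 75.8% (67.2% to 83.2%) on the minus strand, intervals that overlapped. In the body of Ckm they were 44.9% and 63.9%, but over the 96 CpGs with at least 3 reads on each strand the mean fractions were 59.9% and 61.6%. At the other end of Ckm the plus strand was at 14.5% (11.2% to 18.3%), which alone would be called low, and the minus strand at 29.5% (24.9% to 34.3%), while over 42 shared CpGs the means were 14.4% and 18.1%. At the other end of Acta1 the plus strand was at 19.1% (15.6% to 23.0%) and the minus strand at 10.4% (8.07% to 13.0%), and over 66 shared CpGs the means were 17.8% and 8.79%.

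Other genes of muscle were taken from lists of regulators and of contractile genes. Of 29 other regulators of skeletal muscle and heart, 18 (62.1%) were low at the start, and of 44 other contractile genes 8 (18.2%) were, compared with 54% of all autosomal genes. The medians were 11.1% and 69.2%. The 2 sets differ in CpG number, with medians of 85 and 31 CpGs. They also differ in how the start was set. The strand was known for 15 of the 29 regulators and for 38 of the 44 contractile genes. For the rest the end with more CpGs was the start, a choice that favours windows with many CpGs. Among CpG-rich starts 15 of 15 regulators and 5 of 5 contractile genes were low, and among CpG-poor starts 0 of 6 and 0 of 32 were. In the intermediate class 3 of 8 and 3 of 7 were low. Myog and Myf5 thus lay above the median of the other regulators, and Des below that of the other contractile genes.

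Among the skeletal muscle regulators, Mef2d, a MEF2 factor, was among the lowest at 5.65%. The highest were Mef2a (76.5%) and Mef2c (63.9%), factors of the same family that act with the myogenic factors, but at their annotated starts with more CpGs they were at 5.50% and 7.24%. Among the cardiac regulators Hand2 (5.52%) and Tbx20 (6.61%) were lowest and Srf (73.7%) and Hopx (60.8%) highest. Srf was likewise at 4.54% and Hopx at 15.2% at an annotated start further inside. With such starts, a definition added after these values were known, 21 of 29 regulators and 7 of 44 contractile genes were low.

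Among the skeletal contractile genes Mylpf (4.69%) and Actn3 (10.7%) were lowest and the acetylcholine receptor gene Chrna1 (84.6%) and the troponin gene Tnni2 (84.1%) highest. Mylpf was at 75.2% at its annotated start, 2760 bp inside, a window of 14 CpGs. Among the cardiac ones the calcium handling genes Atp2a2 (2.71%) and Ryr2 (6.11%) were lowest, and Myl4 (79.3%) and Csrp3 (77.5%) highest, with Myl4 at 5.92% at its annotated start. Of smooth muscle and other actin genes, Actg1, the cytoplasmic gamma actin gene, was at 3.67% and Smtn at 19.1%, whereas Acta2 was at 75.8% and Actg2 at 59.6%. Of the 8 genes in that list 1 was low, and the median was 34.7%. For Actn3, Tnni2, Atp2a2 and Actg2, which had no known strand, the start was taken as the end with more CpGs.

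Profiles of 20 windows around the start were compared only among the 91 genes of the members and lists. Within these, the gene most like Tnnt2 was Csrp3, with a mean absolute difference of 6.40 points over 18 shared windows. Nearest to Myod1 was Actn2 (8.31 points over 16 windows), to Des Mesp1 (9.71 over 20), to Mb Tnnc2 (8.82 over 17), to Myl2 Myh8 (8.80 over 16), to Myog Myh2 (11.6 over 15), to Ckm Tnnc2 (13.1 over 20) and to Acta1 Casq1 (13.9 over 15). Myf5 and Actc1 shared fewer than 15 measured windows with every gene.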

How the data were processed

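Bisulfite reads of the epiblast of 2 samples at embryonic day 6.5 were given as 1 table. The values deposited by the authors are whole-number counts of methylated and unmethylated reads per strand of each CpG, not normalized. The submitters' processing notes list build mm10 and the tools Bowtie2 2.1.0, Bismark 0.12.5 and cutadapt 1.3 without their roles. The sources used here do not state how the samples were combined or whether duplicate reads were removed.

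Strands were added over 21908008 CpGs. Autosomes had 133245671 read counts, a median of 6 per CpG, and 89.9% of CpGs with a read; the start windows of the 10 genes had 7.00 to 16.9 reads per CpG. A region needed 5 CpGs with a read and 20 reads. Gene ends came from RefSeq (GRCm38.p6), and strand from its promoter table for 9 of the 10 genes and 16457 of 20665 autosomal protein-coding genes; for the rest the end with more CpGs was the start. Exons were not used here. CpG positions in all 13 promoter sequences matched the table. Window levels and calls were tested on simulated data (Python 3.11.15, numpy 2.4.6, scipy 1.17.1). The members and lists were chosen with earlier results of these data known. Named were all 10 genes, the 2 highest and 2 lowest of each list, neighbours within 10 kb and the nearest profiles; 1 gene under this rule is not reported here. Alternatives changed strand, window size, read minimum, summary, thinning, depth limit, thresholds and the choice of start.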

Additional observations from a re-analysis of the deposited data

How the results depend on the processing

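Over 9 alternatives that kept the start at the same end of the gene, Myod1 and Des stayed at or below 27.6% (Myod1 with 1 CpG per 100 bp) and the other 8 genes at or above 46.5% (Acta1 with 500 bp to either side). With the start at the end with more CpGs, Acta1 was at 14.1% and Ckm at 21.7%. The number of genes called low was less stable than the levels. It was 1 instead of 2 with minus strand reads alone, with 500 bp to either side and without CpGs of more than 26 reads. It was 0 with 2000 bp to either side, with 1 CpG per 100 bp and with intervals below 10%. Among other skeletal contractile genes 4 were low, but 2 with 2000 bp, 1 with 1 CpG per 100 bp, 1 with intervals below 10%, and 2 at the annotated start with the most CpGs. With intervals below 10%, low were 3 of the other myogenic regulators and 3 of the cardiac regulators, each 9 as reported and between 7 and 11 under the other alternatives. Of smooth muscle and other actin genes 1 was low, but 2 with 500 bp, 2 with 2000 bp and 4 with intervals below 30%.

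The median of contractile genes minus that of regulators was 3.64 points at the start and -4.11 with 500 bp to either side. In flanking windows it was -4.45 points and 4.23 with plus strand reads alone, where regulators were at 68.8% and contractile genes at 73.1%. Regulators were at 73.1% with minus strand reads alone, and contractile genes at 68.2% with 1 CpG per 100 bp. In gene bodies the difference was 20.9 points, with contractile genes at 69.0% and the 2 measured regulators at 48.1%. Gene bodies of contractile genes were at 71.6% with 2000 bp left out at each end. The cause was not tested. Calls need an interval, so none were made with the mean of CpG fractions. By that mean the start window of Des was at 21.0% and that of Myod1 at 19.7%. No regulator had a body left with 2000 bp removed. Depth limits single CpGs and the windows around Myf5 and Actc1.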
